A study of Mus musculus with 16 samples.

Results

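The transcription factor NRF2, encoded by Nfe2l2, its inhibitor Keap1 and 8 genes for enzymes that NRF2 is known to drive were followed in mouse macrophages incubated with apoptotic cells. The 10 genes, Nfe2l2, Keap1, Hmox1, Nqo1, Gclc, Gclm, Gsr, Txnrd1, Srxn1 and Prdx1, were chosen by name as members of this pathway. Each matched 1 Ensembl ID of the 55416 in the raw count table, and all 10 passed the filter on low counts that left 14168 genes for testing. The cells were Hoxb8 macrophages, derived from mouse bone marrow progenitors that are kept dividing by the transcription factor Hoxb8. They were either kept alone or incubated for 45, 90 or 180 min with apoptotic cells of the human T cell line Jurkat, with 4 libraries in each of the 4 groups and 16 in all. The labels give no genotype, strain, sex or age, no number of clones or donors behind the line, and no harvest time for the group kept alone. Time in culture and contact with apoptotic cells therefore cannot be told apart. No label says that libraries came from separate cultures, so a p-value speaks only of the spread among these libraries, and that spread may be technical.

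NRF2 is a transcription factor that is held at low levels in resting cells because KEAP1 binds it and passes it to a CUL3 ubiquitin ligase for destruction. Oxidants and electrophiles modify KEAP1, NRF2 then escapes, pairs with a small MAF protein in the nucleus and binds antioxidant response elements beside its target genes. Because this control acts on the protein, the RNA of Nfe2l2 and Keap1 does not measure NRF2 activity. In macrophages the pathway is known for the breakdown of haem by HMOX1, for glutathione synthesis and for restraint of inflammatory genes, and macrophages that digest dying cells take in haem, iron and oxidised lipid.

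Promoter sequences of the members are shown because they differ in whether the letters TGACNNNGC lie beside the start of the gene. These letters are a core of the antioxidant response element. No other form of the element was searched for, so the windows may hold others. RefSeq promoter windows of the build GRCm38.p6, from 250 bases before to 50 after each start, were found for 7 of the 10 genes, namely Nqo1, Gclm, Txnrd1, Srxn1, Prdx1, Nfe2l2 and Keap1. On either strand, the motif was present for 5 of the 7 genes, once each, and for Txnrd1 it was in 1 of its 3 windows. Over all genes, 12.4% of 32851 windows held it, and 14% of 27025 genes held it in at least 1 window. Below, each motif is in capitals with 10 bases on either side, read 5′ to 3′ on the strand of the gene.
Gclm, chr3:122245413-122245441, plus strand: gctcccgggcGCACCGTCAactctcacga
Txnrd1, chr10:82859104-82859132, plus strand: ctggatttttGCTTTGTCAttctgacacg
Srxn1, chr2:152105542-152105570, plus strand: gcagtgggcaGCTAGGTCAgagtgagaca
Prdx1, chr4:116685456-116685484, plus strand: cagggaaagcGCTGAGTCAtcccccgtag
Nfe2l2, chr2:75704885-75704913, minus strand: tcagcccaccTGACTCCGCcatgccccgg
In the first 4 the motif reads on the opposite strand to the gene, and in Nfe2l2 on the same strand. In Prdx1 the opposite strand reads TGACTCAGC, which also contains TGACTCA, the recognition sequence of AP-1. Relative to the start, the motif's first base lay at position -134 in Gclm, -92 in Txnrd1, 28 in Srxn1, -133 in Prdx1 and -240 in Nfe2l2. No match was found in the windows of Nqo1 and Keap1, which says only that these letters are not within them. Such a match is a description of sequence and not a bound site.

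Libraries held 10.7 to 41.7 M counts, with 13.6 to 17.4 M at 90 min and 10.7 to 23.4 M at 180 min against 18.7 to 27.7 M in macrophages alone. CPM are counts scaled to a common effective library size, except that the marker sums here use the unscaled total. All 8 macrophage markers were tested, and they summed to 9540 to 12212 CPM in every library. Of 8 T cell markers, which would come from the Jurkat cells if human reads were counted as mouse genes, Cd3e, Cd3g and Cd2 had 0 counts in all 16 libraries. The list summed to 9.7 to 10.7 CPM at 45 min, 9.86 to 10.9 CPM at 90 min, 10.5 to 14.1 CPM at 180 min and 11.9 to 14.6 CPM in macrophages alone. Most of it came from Cd28, with 1209 counts in macrophages alone and 1233, 598 and 817 at 45, 90 and 180 min, so the sum mainly follows that gene. In the same order Cd3d had 0, 2, 0 and 9 counts, Lck 12, 23, 22 and 16, Zap70 9, 0, 4 and 12, and Lat 28, 48, 35 and 40. Whether any of these counts came from Jurkat cells was not tested. Neutrophil markers summed to at most 4.43 CPM and erythroid markers to at most 0.288 CPM, with 4 of 5 erythroid markers at 0 throughout. The progenitor list summed to 19 to 33.5 CPM, nearly all of it from Hoxb8, the factor that keeps the progenitors of this line dividing. In macrophages alone Hoxb8 had 2765 counts, Cd34 had 1, and Kit and Flt3 had 0. The share of counts from mitochondrial genes moved with time. It was 4.21 to 4.71% in macrophages alone, 3.34 to 3.76% at 45 min, 5.12 to 6.4% at 90 min and 6.44 to 7.75% at 180 min, and its part in the results was not tested.

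Across the time course, 9 of the 10 genes changed at 1 time or more, in an edgeR quasi-likelihood test of 45, 90 and 180 min together. The Benjamini-Hochberg adjusted p had to be under 0.05, the threshold for every call here. The background was high, since 44.6% of all tested genes were called. Hmox1 had the smallest value (adjusted p = 2.6e-21), and Nqo1 alone was not called (adjusted p = 0.147). The main pattern was a late one. At 180 min against macrophages alone, Hmox1, Gclm, Srxn1, Txnrd1 and Nfe2l2 were higher and Keap1 was lower, while at 45 min none of the 10 was called by edgeR. Calls over all genes also grew with time, from 4.69% higher and 6.11% lower at 45 min to 15.1% and 16% at 180 min. The late timing is therefore not particular to these genes. The lack of calls at 45 min is near the background, as is the 1 lower at 180 min. In bulk libraries, a change in every cell and a change in how many cells make a transcript cannot be told apart.

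**Figure D1:**
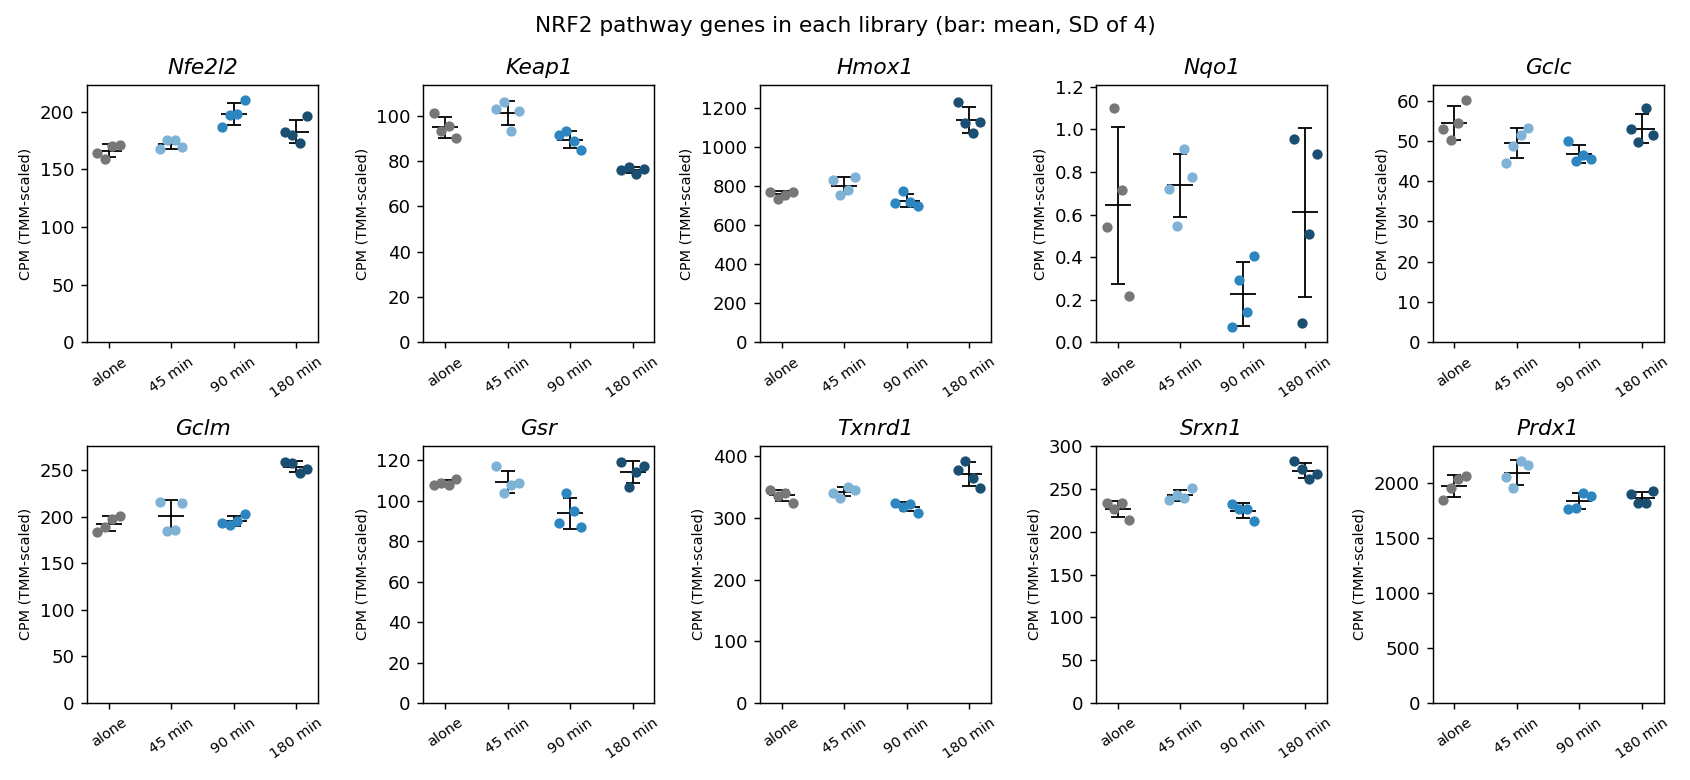
Levels of the 10 genes in CPM (y axis, from 0) in each library of the 4 groups (x axis), with points for libraries and black bars for the mean and SD of 4. Hmox1 sits at 1072 to 1229 CPM at 180 min, above all other libraries, Keap1 is lowest at 180 min, Nfe2l2 is highest on average at 90 min, and Nqo1 is at or under 1.1 CPM in every library.

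At 180 min against macrophages alone the regulators changed in opposite directions. Nfe2l2 (ENSMUSG00000015839), the gene of NRF2 itself, had 164, 159, 170 and 171 CPM in macrophages alone, 168, 175, 175 and 169 CPM at 45 min, 187, 197, 198 and 210 CPM at 90 min and 182, 180, 173 and 196 CPM at 180 min. Every library at 90 and at 180 min was above every library of macrophages alone, while those at 45 min overlapped them. At 90 min Nfe2l2 averaged 198 ± 9.44 CPM, against 166 ± 5.48 CPM in macrophages alone (SD, n = 4 each), a log2 fold change of 0.25 (SE 0.047, edgeR adjusted p = 3.15e-05). At 180 min the change was smaller, at 0.14 (SE 0.047, edgeR adjusted p = 0.0171), and the call was lost when library 4 of 180 min (0.11, adjusted p = 0.0877) or library 2 of macrophages alone (0.13, adjusted p = 0.057) was left out. The step between 180 and 90 min, -0.11, was not called (edgeR adjusted p = 0.124).

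Keap1 (ENSMUSG00000003308), which encodes the adaptor that delivers NRF2 for destruction, had 101, 93.1, 95.5 and 90 CPM in macrophages alone, 103, 106, 93.4 and 102 CPM at 45 min, 91.3, 93, 88.6 and 84.8 CPM at 90 min and 76.1, 77.5, 74.3 and 76.3 CPM at 180 min. The 4 libraries at 180 min were below the other 12. Keap1 fell to 76 ± 1.3 CPM at 180 min, against 94.9 ± 4.64 CPM in macrophages alone (SD, n = 4 each), a log2 fold change of -0.32 (SE 0.054, edgeR adjusted p = 2.5e-06). The fold was 0.8 with a 95% interval of 0.743 to 0.861. It was also lower at 180 than at 90 min (-0.23, edgeR adjusted p = 0.0017) and at 90 than at 45 min (-0.18, edgeR adjusted p = 0.0102), but the last call was lost once each library's dependence on gene length and GC content was taken out (-0.09, adjusted p = 0.17).

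Because both genes are counted in the same library, their count ratio does not depend on how libraries are scaled. It can still carry a dependence on gene length and GC content (46.8% GC for Nfe2l2 and 58% for Keap1). That dependence was not taken out of any of the ratios. The Nfe2l2 to Keap1 ratio averaged 2.22 ± 0.188 at 90 min and 2.4 ± 0.112 at 180 min, against 1.75 ± 0.118 in macrophages alone (SD, n = 4 each). No library of 90 min, at 2.05 to 2.47, or of 180 min, at 2.32 to 2.56, overlapped macrophages alone, at 1.62 to 1.9. In 2-sided exact permutation tests both differences had p = 0.0286, the smallest value that 4 against 4 allows, and 0.0571 after Benjamini-Hochberg adjustment over the 18 tests of 3 ratios in 6 comparisons, which does not pass 0.05. At 45 min the ratio was 1.71 ± 0.111 and overlapped macrophages alone.

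Hmox1 (ENSMUSG00000005413) encodes haem oxygenase 1, which opens the haem ring and releases iron, carbon monoxide and biliverdin. It had 770, 732, 757 and 772 CPM in macrophages alone, 830, 757, 780 and 846 CPM at 45 min, 716, 774, 718 and 696 CPM at 90 min and 1229, 1126, 1072 and 1130 CPM at 180 min. The 180 min libraries lay above all the others, and both earlier times overlapped macrophages alone. Hmox1 averaged 1139 ± 65.2 CPM at 180 min, against 758 ± 18.4 CPM in macrophages alone (SD, n = 4 each), a log2 fold change of 0.59 (SE 0.042, edgeR adjusted p = 3.29e-18) or 1.5-fold with a 95% interval of 1.42 to 1.59. This was the largest rise among the 10 genes at 180 min. Between 180 and 90 min it was 0.65 (SE 0.042, edgeR adjusted p = 3.3e-19), and the rise was seen only in that last interval sampled. Before it, Hmox1 was lower at 90 than at 45 min by a small margin (-0.15, edgeR adjusted p = 0.00585), a call lost after the same length and GC correction (-0.06, adjusted p = 0.199).

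The other classic marker of the pathway, Nqo1 (ENSMUSG00000003849), a quinone reductase, was close to silent in these cells. Its counts were 15, 28, 19 and 4 in macrophages alone, 22, 16, 22 and 32 at 45 min, 1, 5, 2 and 7 at 90 min and 14, 1, 12 and 21 at 180 min. At 180 min it averaged 0.61 ± 0.397 CPM, against 0.642 ± 0.368 CPM in macrophages alone (SD, n = 4 each), and the 95% interval of the fold, 0.445 to 2.11, spans any change like that of Hmox1. The low counts at 90 min gave -1.62 against 45 min, with no overlap of libraries, but did not pass the test (edgeR adjusted p = 0.0512). DESeq2 did call that difference (-1.65, adjusted p = 0.0313), and it was called in 8 of 24 settings in all.

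Glutathione is made from glutamate, cysteine and glycine, and its first step is run by glutamate-cysteine ligase. Gclm (ENSMUSG00000028124), the modifier subunit of that enzyme, had 183, 189, 197 and 201 CPM in macrophages alone, 216, 184, 186 and 215 CPM at 45 min, 193, 191, 195 and 203 CPM at 90 min and 259, 257, 247 and 251 CPM at 180 min. As for Hmox1, all 4 libraries at 180 min stood above the other 12. The mean was 253 ± 5.49 CPM at 180 min and 193 ± 8.05 CPM in macrophages alone (SD, n = 4 each), a log2 fold change of 0.39 (SE 0.049, edgeR adjusted p = 1.22e-09) or 1.31-fold (95% interval 1.23 to 1.4).

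Gclc (ENSMUSG00000032350), the catalytic subunit of the same enzyme, did not rise with it. It had 53, 50.2, 54.5 and 60.1 CPM in macrophages alone, 44.6, 48.7, 51.5 and 53.1 CPM at 45 min, 50, 45, 46.6 and 45.6 CPM at 90 min and 53, 49.7, 58.2 and 51.4 CPM at 180 min. At 180 min the fold against macrophages alone was 0.98 with a 95% interval of 0.893 to 1.07, which lies below the interval of Gclm. At 90 min Gclc was lower (-0.22, SE 0.069, edgeR adjusted p = 0.0176), but this call was lost without library 2 of 90 min (-0.20, adjusted p = 0.052), on leaving out library 4 of the macrophages alone (-0.17, adjusted p = 0.0968) and with libraries thinned to 10.7 M counts (-0.17, adjusted p = 0.158). The Gclm to Gclc count ratio was 4.79 ± 0.39 at 180 min and 3.55 ± 0.179 in macrophages alone (SD, n = 4 each), with no overlap (exact permutation p = 0.0286, 0.0571 adjusted over 18 tests).

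Gsr (ENSMUSG00000031584), glutathione reductase, which restores oxidised glutathione with NADPH, dipped at 90 min. It had 108, 109, 108 and 111 CPM in macrophages alone, 117, 104, 108 and 109 CPM at 45 min, 89.1, 104, 94.9 and 87 CPM at 90 min and 119, 107, 114 and 117 CPM at 180 min. The 90 min libraries lay below all of macrophages alone, and the 180 min libraries overlapped macrophages alone. Gsr fell to 93.6 ± 7.39 CPM at 90 min, against 109 ± 1.47 CPM in macrophages alone (SD, n = 4 each), or -0.22 on the log2 scale (SE 0.054, edgeR adjusted p = 0.00208). It was higher at 180 than at 90 min (0.29, SE 0.055, edgeR adjusted p = 6.64e-05), while at 180 min against macrophages alone it was not called (0.07, edgeR adjusted p = 0.337).

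Peroxiredoxins remove hydrogen peroxide, sulfiredoxin repairs them when they are over-oxidised, and thioredoxin reductase supplies the electrons through thioredoxin. Srxn1 (ENSMUSG00000032802), sulfiredoxin, had 234, 227, 234 and 214 CPM in macrophages alone, 237, 243, 240 and 251 CPM at 45 min, 233, 227, 227 and 213 CPM at 90 min and 283, 274, 262 and 268 CPM at 180 min. Its 180 min libraries were above all 12 others. The log2 fold change at 180 min was 0.26 (SE 0.045, edgeR adjusted p = 4.58e-06), from means of 271 ± 8.98 CPM at 180 min and 227 ± 9.56 CPM in macrophages alone (SD, n = 4 each). At 45 min the libraries also lay above macrophages alone, by 0.09, but the test did not call it (edgeR adjusted p = 0.186).

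Txnrd1 (ENSMUSG00000020250), cytosolic thioredoxin reductase, had 346, 336, 340 and 325 CPM in macrophages alone, 340, 333, 350 and 346 CPM at 45 min, 325, 317, 322 and 308 CPM at 90 min and 378, 393, 365 and 348 CPM at 180 min. The 180 min libraries lay above those of macrophages alone, and 1 of them fell within the range of 45 min. Its rise at 180 min was the smallest of the enzymes called, 0.14 (SE 0.042, edgeR adjusted p = 0.00878), and leaving out library 2 of 180 min ended the call (0.10, adjusted p = 0.0806). Against 90 min it was 0.22 (SE 0.043, edgeR adjusted p = 9.43e-05).

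Prdx1 (ENSMUSG00000028691), the most abundant of the set in CPM, had 1846, 1959, 2043 and 2071 CPM in macrophages alone, 2055, 1961, 2207 and 2169 CPM at 45 min, 1771, 1775, 1909 and 1889 CPM at 90 min and 1905, 1818, 1820 and 1927 CPM at 180 min. It followed none of the rises above: at 180 min it was 0.943 of macrophages alone with a 95% interval of 0.895 to 0.994, and the adjusted test did not call it (edgeR adjusted p = 0.0927). In 2 of 25 settings it was called lower there. These were the length and GC correction (-0.12, edgeR adjusted p = 0.00148) and the fit without library 1 of macrophages alone (-0.12, edgeR adjusted p = 0.0195). Against 45 min it was lower at 90 min (-0.19, edgeR adjusted p = 9.08e-05) and at 180 min (-0.17, edgeR adjusted p = 0.00037), with no overlap in either. The fall at 90 min against macrophages alone, -0.11 (edgeR adjusted p = 0.0352), was lost without library 1 or 2 of 90 min or library 2, 3 or 4 of macrophages alone (adjusted p = 0.0515 to 0.127), with upper-quartile scaling (adjusted p = 0.103) and with coding genes only (adjusted p = 0.0596). Reads of Prdx1 can also fall on processed copies elsewhere in the genome, so its level is uncertain. The Srxn1 to Prdx1 count ratio was 0.145 ± 0.00519 at 180 min and 0.115 ± 0.00959 in macrophages alone (SD, n = 4 each), without overlap (exact permutation p = 0.0286, 0.0571 adjusted over 18 tests).

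**Figure D2:**
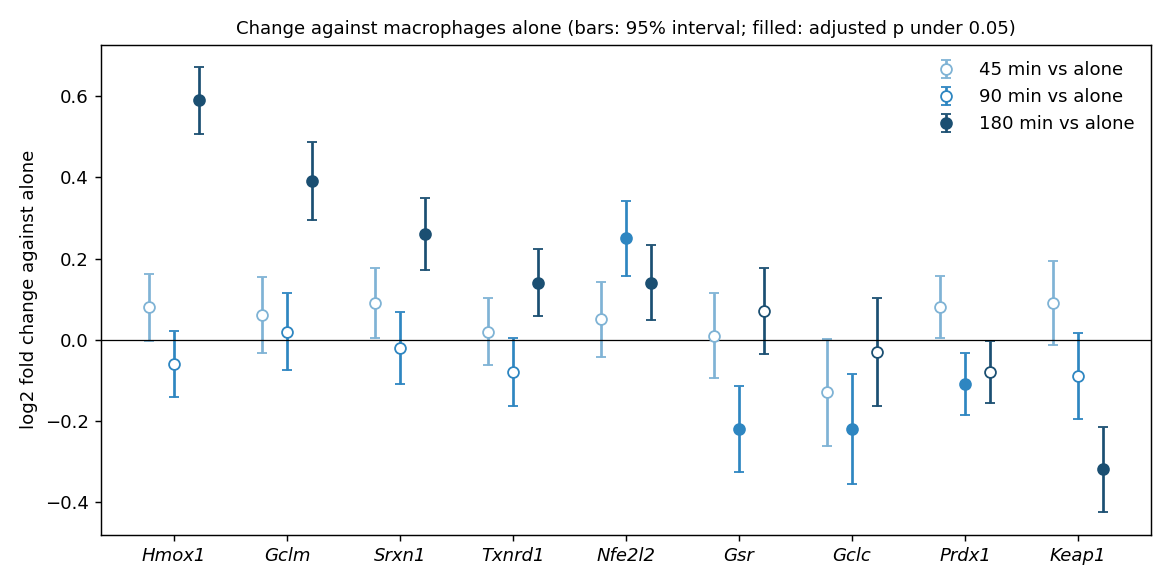
Log2 fold change against macrophages alone (y axis) at 45, 90 and 180 min for 9 of the 10 genes (x axis), Nqo1 left out for its few counts, with bars for the 95% interval and filled points for an edgeR adjusted p under 0.05. Filled points at 180 min run from 0.59 for Hmox1 to -0.32 for Keap1, those at 90 min are Nfe2l2 above 0 and Gsr, Gclc and Prdx1 below 0, and no point is filled at 45 min.

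**Figure D3:**
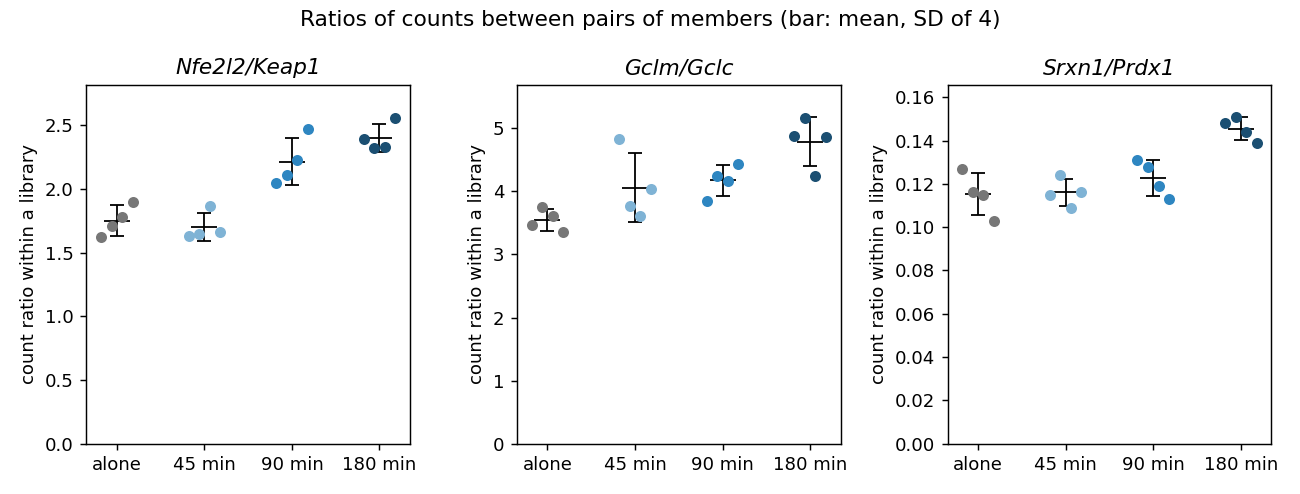
Count ratios within each library (y axis, from 0) for the pairs Nfe2l2/Keap1, Gclm/Gclc and Srxn1/Prdx1 in the 4 groups (x axis), with points for libraries and bars for mean and SD of 4. At 180 min each ratio stands above macrophages alone with no overlap, at 2.4 against 1.75, 4.79 against 3.55 and 0.145 against 0.115. Each ratio is built from genes tested above in the same libraries, so it is not separate support for those changes.

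Counts of calls over the 10 genes are best read beside those of all genes. At 45 min against macrophages alone edgeR called 0 higher and 0 lower, where it called 4.69% of all genes higher and 6.11% lower. At an unadjusted p under 0.05 it found 3 higher, Hmox1, Srxn1 and Prdx1, and 1 lower, Gclc, and DESeq2 called 0 with 3 at an unadjusted p under 0.05. Leaving out library 2 of 45 min gave 2 calls, Hmox1 at 0.13 and Prdx1 at 0.13. At 90 min 1 was higher and 3 were lower, with a background of 11.1% and 9.97%, so the 1 higher is near its background. There 2 calls in all remained without library 2 of 90 min or library 4 of macrophages alone. At 180 min 5 were higher and 1 was lower, with a background of 15.1% and 16%. The median log2 fold change of the 10 was 0.07 at 45 min, -0.08 at 90 min and 0.11 at 180 min, beside medians of 0.00, 0.00 and 0.01 for all genes. These 3 comparisons share the libraries of macrophages alone.

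The steps between times place the changes. From 90 to 180 min 5 of the 10 rose, namely Hmox1, Gclm, Srxn1, Txnrd1 and Gsr, where 4.45% of all genes did. Keap1 was the 1 that fell, where 6.97% did, so that count is near the background. The median over the 10 genes was 0.25, beside -0.00 for all genes. At 90 min against 45 min 1 was higher, Nfe2l2, and 4 were lower, Hmox1, Prdx1, Gsr and Keap1, with a background of 14.8% and 13.3%. The 1 higher is near its background. DESeq2 called 8 in that comparison, the same 5 and Srxn1, Txnrd1 and Nqo1. In edgeR 8 were also called when library 2 of 180 min, library 2 of 45 min or library 4 of macrophages alone was left out. The falls of Srxn1 and Txnrd1, both -0.11 with no overlap of libraries, were each called in 18 of 25 settings. The main fit was not among those settings (edgeR adjusted p = 0.0591 for Srxn1 and 0.0549 for Txnrd1). At 180 against 45 min 2 were lower, Prdx1 and Keap1, near the background of 18%. In the same comparison 4 were higher, Hmox1, Gclm, Srxn1 and Txnrd1, with a background of 18.3%. Of these, the Txnrd1 call (0.12, adjusted p = 0.0274) was lost without library 1 or 2 of 180 min, library 1, 2 or 4 of 45 min, or library 2 or 3 of macrophages alone (0.08 to 0.11), and with no filter on low counts (0.10, adjusted p = 0.0973).

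Levels per kb of exon, in CPM per kb, allow the genes to be ranked against each other. In macrophages alone Prdx1 stood first at 651 ± 33.3, then Hmox1 at 433 ± 10.5, Srxn1 at 80.6 ± 3.39, Txnrd1 at 47.5 ± 1.23, Nfe2l2 at 43.7 ± 1.44, Gsr at 39.5 ± 0.534, Gclm at 30.6 ± 1.28, Keap1 at 20.2 ± 0.989, Gclc at 14.5 ± 1.1 and Nqo1 at 0.414 ± 0.237 (SD, n = 4 each). No neighbours in this order overlapped. At 180 min Hmox1, at 651 ± 37.2, and Prdx1, at 614 ± 18.6, overlapped, as did Txnrd1, at 52.4 ± 2.74, and Nfe2l2, at 48.1 ± 2.48, and also Gsr, at 41.5 ± 1.89, and Gclm, at 40.3 ± 0.873. With the longest protein-coding transcript as length, a choice made after the values were seen, Prdx1 stayed above Hmox1 at 180 min (a log2 difference in level of Hmox1 against Prdx1 of -0.17), and in macrophages alone Txnrd1 stood above Srxn1.

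Around these 10 genes, 8 lists with 113 other genes of the pathway were counted whole, of which 110 were tested and Gsta4, Sod3 and Cd163 were not. At 45 min 25 were higher and 4 lower than in macrophages alone, at 90 min 5 were higher and 35 lower, and at 180 min 11 were higher and 33 lower. Among all tested genes edgeR called 4.69% higher and 6.11% lower at 45 min, 11.1% and 9.97% at 90 min, and 15.1% and 16% at 180 min, so the share of the 110 called higher lay below the background at 90 and 180 min. The median log2 fold change of the 110 was 0.09, -0.10 and -0.04 at the 3 times, beside 0.00, 0.00 and 0.01 for all genes. The count of 25 at 45 min fell to 13 after the length and GC correction, and to 13 with libraries thinned to 10.7 M counts. Up to 4 genes with the smallest p in a list and comparison are named below.

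**Figure D4:**
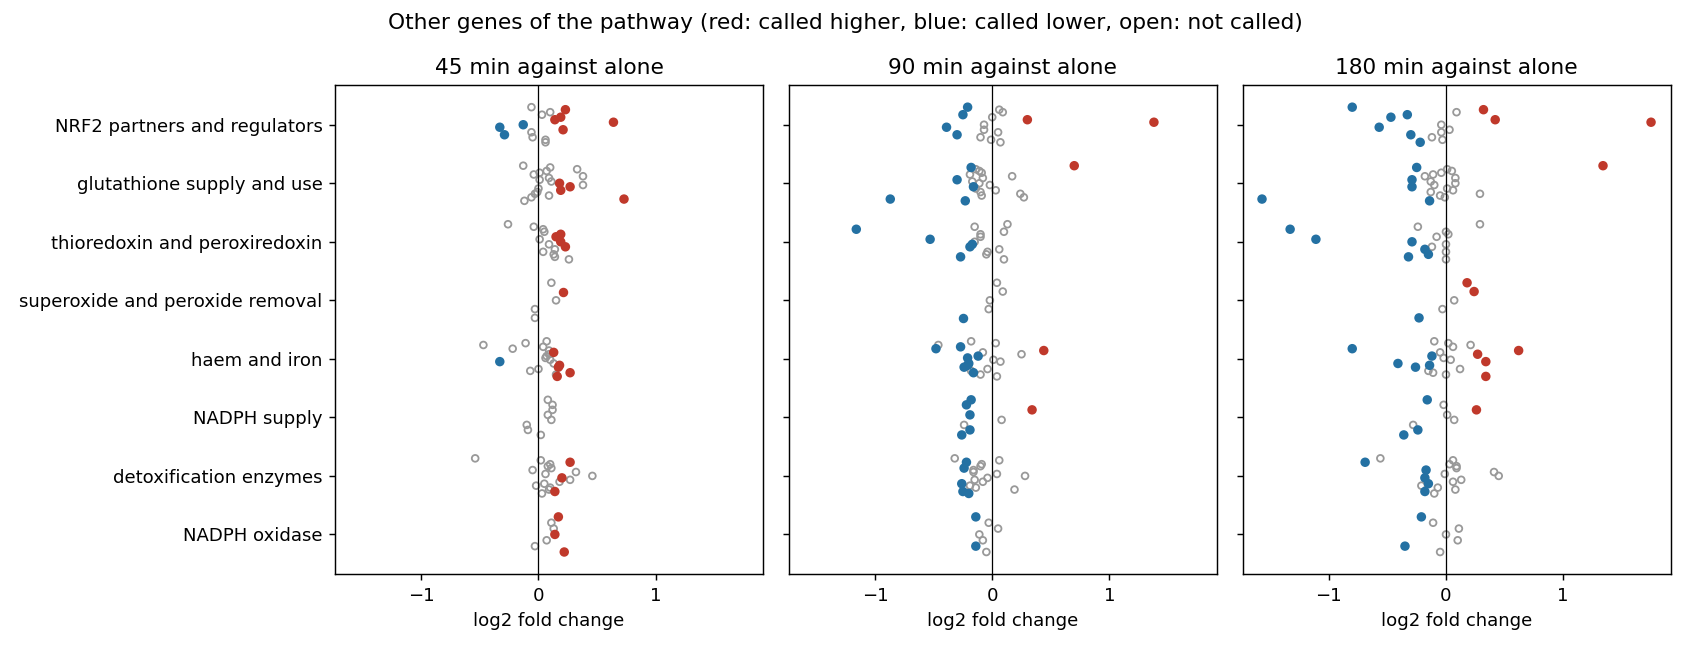
Log2 fold change against macrophages alone (x axis) at 45, 90 and 180 min for the 110 tested genes of 8 pathway lists (y axis), red for called higher, blue for called lower and open for not called. Most calls at 45 min are small and to the right, most at 90 and 180 min are to the left, and the far points at 180 min include Maff at 1.75 and Slc7a11 at 1.34 on the right and Chac1 at -1.57 and Txnip at -1.33 on the left.

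In the glutathione list 4 of 21 tested genes were called at 45 min, all higher, 1 was higher and 5 lower at 90 min, and 1 was higher and 5 lower at 180 min. The background was 4.69% higher at 45 min, 11.1% higher and 9.97% lower at 90 min and 15.1% higher and 16% lower at 180 min, and the list medians were 0.09, -0.11 and -0.05. The 1 at both later times was Slc7a11, the light chain of the cystine importer that feeds glutathione synthesis and a known NRF2 and ATF4 target. Slc7a11 had 49.4, 41.1, 52.7 and 47.7 CPM in macrophages alone, 46.1, 43, 43.9 and 41.7 CPM at 45 min, 74.8, 68.7, 79.1 and 86.9 CPM at 90 min and 111, 131, 123 and 119 CPM at 180 min. None of the 8 enzymes was called higher at 90 min, but Slc7a11 was already above macrophages alone at 90 min (0.70, SE 0.068, edgeR adjusted p = 1.92e-12), and at 180 min its change was 1.34 (SE 0.067, edgeR adjusted p = 5.76e-25). Its partner Slc3a2, the heavy chain of the same importer, went the other way, at -0.18 at 90 min and -0.25 at 180 min (edgeR adjusted p = 8.99e-07 at 180 min). Chac1, which breaks glutathione down and is driven by ATF4, was higher at 45 min (0.73) and lower at 180 min (-1.57, SE 0.21, edgeR adjusted p = 1.19e-08), with 1.7 ± 0.335 CPM at 180 min and 5.18 ± 0.816 CPM in macrophages alone (SD, n = 4 each). The 45 min call of Chac1 was lost with libraries thinned to 10.7 M counts (0.41, adjusted p = 0.358). Gpx1, a peroxidase that spends glutathione, was higher at 45 min (0.27) and lower at 180 min (-0.29, edgeR adjusted p = 8.78e-07).

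Among 15 partners and regulators of NRF2, 5 were higher and 3 lower at 45 min, 2 higher and 4 lower at 90 min, and 3 higher and 6 lower at 180 min. Of all genes, 4.69% were higher and 6.11% lower at 45 min, 11.1% and 9.97% at 90 min, and 15.1% and 16% at 180 min, so that the 2 higher at 90 min and the 3 higher at 180 min are near the background. The medians of the 15 were 0.06, -0.01 and -0.04. The small MAF proteins pair with NRF2 or with its competitor BACH1 on DNA. All 3 of their genes were called higher at 45 min. Maff had 2.85 ± 0.45 CPM in macrophages alone, 4.42 ± 0.491 CPM at 45 min, 7.44 ± 0.539 CPM at 90 min and 9.57 ± 1.19 CPM at 180 min (SD, n = 4 each), and was higher at all 3 times (0.64, 1.38 and 1.75, edgeR adjusted p = 0.00863, 6.13e-09 and 6.66e-13). The first of these calls ended when library 2 of macrophages alone was left out (0.55, adjusted p = 0.0528) or with libraries thinned (0.63, adjusted p = 0.0962). Mafg and Mafk, named at 45 min after their values were seen, were higher by 0.14 and 0.19 (edgeR adjusted p = 0.0401 and 0.0491), and both calls were lost after the length and GC correction (0.08 and 0.10, adjusted p = 0.305 and 0.398). These calls held in 19 of 25 settings for Mafg and 16 of 25 for Mafk. They ended for both with libraries thinned (adjusted p = 0.0698 and 0.0709) and without library 1 or 4 of 45 min or library 3 or 4 of macrophages alone (adjusted p = 0.051 to 0.148), and for Mafk also by DESeq2 (adjusted p = 0.0562), with upper-quartile scaling (0.0558) and on dropping library 1 of the macrophages kept alone (0.0677). Mafg was higher at 90 min (0.30) and at 180 min (0.42, edgeR adjusted p = 5.12e-11). Mafk was lower at 180 than at 90 min (-0.47, edgeR adjusted p = 2.7e-07), and so was Bach1, a repressor of Hmox1 that haem inactivates (-0.30, edgeR adjusted p = 3.36e-07). Bach1 had 211 to 222 CPM at 180 min, 252 to 278 CPM at 90 min and 247 to 261 CPM in macrophages alone, so that its 180 min libraries were below both. Ep300, a histone acetyltransferase and NRF2 coactivator, was lower at 45, 90 and 180 min (-0.33, -0.39 and -0.57, edgeR adjusted p = 1.67e-07, 8.63e-10 and 4.52e-16). Sqstm1, the autophagy receptor p62, which binds KEAP1, was higher at 180 than at 90 min (0.26, edgeR adjusted p = 5.29e-07), with 1225 ± 58 CPM at 180 min and 1027 ± 50.4 CPM at 90 min (SD, n = 4 each). Sqstm1 had also been higher at 45 min, at 1153 ± 13.6 CPM against 983 ± 5.85 CPM in macrophages alone (SD, n = 4 each). That rise (0.15 to 0.25) and the fall from 45 to 90 min (-0.21 to -0.10) were each called in 25 of 25 settings.

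The haem and iron list, the setting in which HMOX1 works, had 5 higher and 1 lower of 20 tested at 45 min, 1 higher and 8 lower at 90 min, and 4 higher and 5 lower at 180 min. The shares of all genes were 4.69% higher and 6.11% lower at 45 min, 11.1% and 9.97% at 90 min, and 15.1% and 16% at 180 min, and the counts at 180 min are not far from them. The median of the list was 0.08 at 45 min, -0.14 at 90 min and -0.01 at 180 min. Iron that HMOX1 frees is stored in ferritin or exported from the cell. Slc40a1, the iron exporter ferroportin, fell to 17.5 ± 1.91 CPM at 180 min, against 30.4 ± 2.97 CPM in macrophages alone (SD, n = 4 each), or -0.80 on the log2 scale (SE 0.098, edgeR adjusted p = 9.12e-10). The ferritin chains Fth1 and Ftl1 were higher at 45 min (0.17 and 0.18) and lower at 90 min (-0.24 and -0.21, edgeR adjusted p = 2.9e-06 and 6.59e-05). The 45 min call of Ftl1 was lost after the length and GC correction (0.02, adjusted p = 0.783), and both genes can share reads with their processed copies. Fth1, named here at 180 min after its values were seen, averaged 10549 ± 1098 CPM at 180 min and 12599 ± 326 CPM in macrophages alone (SD, n = 4 each), or -0.26 on the log2 scale (edgeR adjusted p = 2.62e-07). Hmox2, the constitutive haem oxygenase, fell at 180 min (-0.41, SE 0.048, edgeR adjusted p = 2.95e-10), opposite to Hmox1, with 124 to 149 CPM at 180 min and 185 to 189 CPM in macrophages alone. Slc11a2, an importer of iron across endosomal membranes, rose at 90 min (0.44) and at 180 min (0.62, edgeR adjusted p = 2.23e-17). Alas1, the first enzyme of haem synthesis, rose at 180 min (0.34, SE 0.047, edgeR adjusted p = 2.83e-08), and Slc48a1, a transporter of haem out of the phagolysosome, was lower at 90 min (-0.27) and higher at 180 than at 90 min (0.33, edgeR adjusted p = 2.76e-07).

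Of 15 thioredoxin and peroxiredoxin genes, 4 were called at 45 min, all higher, 5 at 90 min, all lower, and 6 at 180 min, all lower. This stands beside 4.69% of all genes higher at 45 min, 9.97% lower at 90 min and 16% lower at 180 min, and the list medians were 0.13, -0.10 and -0.12. The deepest falls in the list were those of Txnip, an inhibitor of thioredoxin, at -1.16 at 90 min and -1.33 at 180 min (SE 0.054, edgeR adjusted p = 4.24e-29), and of Sesn2, a stress-induced sensor of leucine, at -0.53 at 90 min and -1.11 at 180 min (edgeR adjusted p = 7.72e-18). Prdx5, a peroxiredoxin of mitochondria and peroxisomes, was higher at 45 min (0.23) and lower at 90 min (-0.19), and its 45 min call ended after the length and GC correction (0.13, adjusted p = 0.0518). Of 5 tested genes that remove superoxide or peroxide, 1 was higher at 45 min, 1 lower at 90 min, and 2 higher and 1 lower at 180 min, with medians of 0.11, -0.02 and 0.07. The background was 4.69% higher at 45 min, 9.97% lower at 90 min, and 15.1% higher and 16% lower at 180 min. At 180 min mitochondrial Sod2 was higher (0.18, edgeR adjusted p = 0.00113), and catalase, Cat, was lower (-0.23, edgeR adjusted p = 5.19e-05).

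Reduction of glutathione and thioredoxin draws on NADPH. Of 8 genes of NADPH supply, 0 were called by edgeR at 45 min (2 at an unadjusted p under 0.05, and DESeq2 called 1), 1 was higher and 5 lower at 90 min, and 1 was higher and 3 lower at 180 min. Of all genes 11.1% were higher and 9.97% lower at 90 min and 15.1% higher and 16% lower at 180 min, which the 1 higher gene at each time is near. The medians of the 8 were 0.08, -0.19 and -0.09. G6pdx, the entry enzyme of the pentose phosphate pathway, had 256 ± 7.95 CPM at 180 min and 328 ± 12.2 CPM in macrophages alone (SD, n = 4 each), a change of -0.36 (SE 0.043, edgeR adjusted p = 4.88e-10).

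Of 19 detoxification genes named as NRF2 targets, 3 were called at 45 min, all higher, and 5 at 90 min and 5 at 180 min, all lower. All genes gave 4.69% higher at 45 min, 9.97% lower at 90 min and 16% lower at 180 min, and the list medians were 0.10, -0.15 and -0.01. They included Trib3, a pseudokinase also driven by ATF4 (-0.69 at 180 min, SE 0.065, edgeR adjusted p = 2.36e-13), and the aldehyde reductase Akr1a1 (-0.25 at 90 min and -0.18 at 180 min). Both had first been called higher at 45 min. Trib3 had 80.8 ± 3.65 CPM at 45 min and 66.8 ± 2.7 CPM in macrophages alone, and Akr1a1 1534 ± 66.8 and 1389 ± 30.6 CPM (SD, n = 4 each). The 45 min call of Trib3 was lost after the length and GC correction (0.15, edgeR adjusted p = 0.0821). Of 7 genes of the NADPH oxidase, which makes superoxide in phagocytes, 3 were higher at 45 min, 2 were lower at 90 min and 2 were lower at 180 min, where the shares of all genes were 4.69%, 9.97% and 16%. The medians of these 7 were 0.13, -0.08 and -0.05. Cybb, its catalytic chain, had 725, 718, 700 and 722 CPM at 180 min, against 872, 921, 924 and 934 CPM in macrophages alone (-0.35, SE 0.038, edgeR adjusted p = 2.93e-11).

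The genes whose course was most like that of Hmox1 over the 16 libraries, by the root mean square difference of log2 CPM centred on each gene's mean among 9858 genes, were Ski (0.0897), Kcnk13 (0.103), Tmem201 (0.104), Hvcn1 (0.106) and Klhl25 (0.109). Ski encodes a repressor of TGF-beta signalling and Hvcn1 a voltage-gated proton channel of phagocytes. Their log2 fold changes at 180 min were 0.56, 0.65, 0.76, 0.45 and 0.59. For Nqo1, the other gene that the rule took because its log2 fold change was largest, the nearest was Praf2 at 0.621, and Nqo1 had only 1 to 32 counts per library. For Gclm and Keap1, added after their values were seen, the nearest were Glul, glutamine synthetase (0.0765), and Oas3, an interferon-induced antiviral enzyme (0.0527).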

How the data were processed

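The authors deposited raw, unnormalized counts of reads per gene for the 16 libraries in 1 table. Total RNA was freed of ribosomal RNA and sequenced from strand-marking libraries, per the labels' protocols. The submitters' processing notes name STAR 2.7.9a, SAMtools, HTSeq and the build mm39, with no roles. How strand, reads shared between genes and human reads were handled was not given in the sources used here. Column names give the group but no replicate number, so numbers 1 to 4 are names in file order. Replicates differed by more than sampling noise (chi-square per degree of freedom 3.84 to 9.55).

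Low genes were filtered with edgeR's filterByExpr (minimum count 10, minimum total 15), libraries were scaled by TMM factors, and genes were tested by quasi-likelihood F tests in edgeR 4.0.16 under R 4.3.3, on all 16 libraries with group as the only term. The test was tried on simulated counts. P-values were adjusted by the Benjamini-Hochberg method over 14168 genes. CPM are counts over the scaled library size, except in the marker sums, which use the unscaled total. The biological coefficient of variation was 7.81%. Standard errors are the coefficient over the square root of F, and 95% intervals use 1.96 standard errors. Gene lengths came from GENCODE M21, which is for an earlier build, so lengths per kb are approximate. Alternatives were DESeq2 1.42.0, DESeq2's size factors and upper-quartile scaling in edgeR, no filter, only the 2 groups compared, coding genes only, thinned libraries, a length and GC trend removed, and each library left out. Members, lists and tests were chosen with earlier results of these data known. The genes named are the 10 members, up to 4 genes with the smallest p per list and comparison, and the 5 genes most like Hmox1 and the other member with the largest fold change. For likeness, log2 CPM took a prior count of 2, and genes needed a mean of at least 1. Promoter windows came from RefSeq (GRCm38.p6).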

Additional observations from a re-analysis of the deposited data

How the results depend on the processing

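The calls of Hmox1, Gclm, Srxn1 and Keap1 at 180 min and of Nfe2l2 and Gsr at 90 min against macrophages alone held in 25 of 25 settings, counting the main one. The cause of each change below was not tested. With the length and GC trend removed, 998 genes were called at 45 min against macrophages alone in place of 1529, and 2 of the 10 members in place of 0, Gclm at 0.14 and Prdx1 at 0.12. Leaving out 1 library in turn gave 0 to 2 members at 45 min and 2 to 4 at 90 min against macrophages alone, in place of 0 and 4. At 90 against 45 min 8 members in place of 5 were called with DESeq2, with DESeq2's size factors in edgeR and with only the 2 groups compared, and 5 to 8 with 1 library left out. Signs turned only for values that were not called. With the length and GC trend removed these were Hmox1 (-0.02), Gsr (-0.03) and Keap1 (-0.00) at 45 min and Gclm at 90 min (-0.03). With thinned libraries they were Gsr at 45 min (-0.00) and Gclc at 180 min (0.00). With upper-quartile scaling they were Srxn1 at 90 min (0.01) and Gclc at 180 min (0.01). Leaving out 1 library in turn gave ranges across 0 for Nqo1 of -0.08 to 0.56 at 45 min, -0.31 to 0.33 at 180 min and -0.47 to 0.07 at 180 against 45 min, and for Gsr at 45 min (-0.00 to 0.05), Gclm at 90 min (-0.02 to 0.04), Srxn1 at 90 min (-0.05 to 0.01) and Gclc at 180 min (-0.08 to 0.02). The log2 ratio differences did so for Nfe2l2/Keap1 (-0.08 to 0.00) and Srxn1/Prdx1 (-0.04 to 0.06) at 45 min and Gclm/Gclc at 90 against 45 min (-0.01 to 0.13). The Hmox1 against Prdx1 level per length at 180 min turned to -0.17 with the longest coding transcript. Pathway genes called higher at 90 against 45 min numbered 8 in place of 5 with coding genes only and with upper-quartile scaling, which also gave 11 in place of 6 at 180 against 45 min. No paired analysis was possible because the columns of the table carry no replicate numbers.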
